A study of Rattus norvegicus with 21 samples.

Results

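Fibroblast and extracellular matrix genes were followed in the infarct zone of the rat heart through permanent coronary ligation and reperfusion. The genes were chosen by symbol from a list of 44 names, drawn up with earlier results of these data known. Of the 44, 40 had a row among the 17085 genes of the count table. Col12a1, Loxl3, Tnc and Bgn were not analysed here. All 40 had enough counts to be tested, together with 11742 genes in all. They were divided by role into 10 resting fibroblast genes, 5 fibrillar collagens, 4 basement membrane and network collagens, 4 beaded filament and fibril-associated collagens, 7 genes of collagen modification and cross-linking, 4 elastic fibre genes and 6 activated matrix genes.

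The study sequenced messenger RNA of Sprague Dawley rat hearts in 7 groups of 3 libraries. Sham was the surgical control without infarction. MI24h hearts had the left anterior descending artery (LAD) tied for 24 h without release. MI1h_R had 1 h of ischemia and then 23 h of reperfusion, and MI6h_R had 6 h and then 18 h. MI24h-F, MI1h-23h-F and MI6h-18h-F had the same ligation and reperfusion times with an added F, which the labels do not spell out. Fenofibrate, a lipid-lowering drug that activates PPARα, is named as a pretreatment in the design text, and no Sham group carries the F. All libraries are labelled as infarct zone, Sham included, and age and sex are not given. Nothing in the labels ties the 3 libraries of a group to separate animals, so p-values measure the spread between these libraries.

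Cardiac fibroblasts lie between the muscle cells and make most of the interstitial matrix. At rest they express the small proteoglycans and fibril-associated proteins that keep collagen fibrils ordered. After infarction they become activated, and over days lay down fibronectin, fibrillar collagen and matricellular proteins that replace dead muscle with a scar. Collagen chains are hydroxylated in the endoplasmic reticulum, secreted and then cross-linked by lysyl oxidases. Basement membrane collagens are made by endothelial, smooth muscle and muscle cells as well as by fibroblasts, and fibronectin is also made by macrophages and endothelium.

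Total counts ran from 12208041 to 18393795 per library. In Sham, 36.3% ± 2.54 of counts were mitochondrial transcripts (SD, n = 3), beside a mean of 14.1% to 17.9% in the injured groups, and the TMM scaling factors were 0.535 to 0.677 in Sham and 0.996 to 1.17 elsewhere. Without that scaling the median log2 fold change of all genes in MI24h against Sham moved from 0.07 to 0.80, so each direction against Sham was checked under 5 scalings. These were TMM, library size alone, TPM, median-of-ratios factors and TMM without mitochondrial genes. Levels below are CPM, read counts scaled by TMM to a common library total, given in order of replicate number. Fold changes are on the log2 scale with their standard error, and a gene was called at an adjusted p under 0.05 in edgeR's quasi-likelihood test, adjusted by Benjamini-Hochberg over the 11742 genes.

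The other cells of the tissue also moved. Of 12 cardiomyocyte markers 10 were lower and 1 higher in MI24h than in Sham, with summed levels of 65070 to 116600 CPM in Sham and 10200 to 14280 in MI24h. Of 8 tested monocyte and macrophage markers 6 were higher in MI24h, with sums of 566.8 to 2706 in Sham and 4999 to 7098 in MI24h. The 8 endothelial markers summed to 1160 to 2070 in Sham and 1103 to 1589 in MI24h, the 8 smooth muscle and pericyte markers to 3923 to 6008 and 4658 to 8223, and the 4 tested epicardial markers to 25.2 to 63.7 and 15.8 to 28.9. In TPM the endothelial sums were 237.2 to 474 in Sham and 412.1 to 710.7 in MI24h. The smooth muscle and pericyte sums were 1210 to 1730 and 2468 to 3811 TPM. Neutrophil markers were higher for 8 of 8 tested in MI24h, with a median log2 fold change of 5.56 and sums of 21.4 to 75.1 in Sham and 478.8 to 2981 in MI24h. Of 8 lymphocyte markers 2 were lower in MI24h, and 3 were higher and 2 lower in each of MI1h_R and MI6h_R. Over all tested genes 28% were higher and 26.2% lower in MI24h. The shares were 25.4% and 24.1% in MI1h_R, and 29.3% and 28% in MI6h_R. The lymphocyte markers that were lower made up a share near these. Des, which cardiomyocytes also express, made up most of the smooth muscle and pericyte sum in every library, so its single members are given below. In bulk tissue, fewer cells of a type and less RNA per cell cannot be told apart. The part of these cell types in the results was not tested. MI6h-18h-F replicate 1 stood apart from its group in several collagens, and results that rest on it are given with and without it. Sham replicate 31, which enters every comparison with Sham, stood apart from the other Sham libraries in several markers. Lyz2 was at 351, 2028 and 348 CPM in Sham, Nppa at 148, 1376 and 62.1 and Myh6 at 21386, 6661 and 22298. In the endothelial marker Cdh5, at 424, 108 and 165 CPM, Sham replicate 11 stood apart instead.

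Levels in Sham hearts differed widely among the 40 genes. Per transcript length, Mgp led with 1496 ± 308 TPM (mean ± SD, n = 3), followed by Sparc at 776 ± 240.1, Col3a1 at 602 ± 119, Dcn at 509 ± 40.00, Gsn at 459 ± 116 and Vim at 431 ± 217. The spreads of Col3a1, Dcn, Gsn and Vim overlapped. At the low end stood Lox at 3.40 ± 1.72 TPM, Fap at 3.16 ± 1.20, Thy1 at 2.97 ± 2.23, Cthrc1 at 2.53 ± 2.13 and P4ha3 at 0.103 ± 0.123. Of the 7 fibroblast markers, Pdgfra, Tcf21, Ddr2, Dcn, Lum, Dpt and Gsn were all present in every library, Tcf21 with at least 9.83 CPM and Ddr2 with at least 23.9. The 40 genes together took 1.46% ± 0.23 of the counts in Sham, 2.19% ± 0.45 in MI24h, 2.21% ± 0.38 in MI1h_R and 2.36% ± 0.42 in MI6h_R (SD, n = 3 each).

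**Figure D1:**
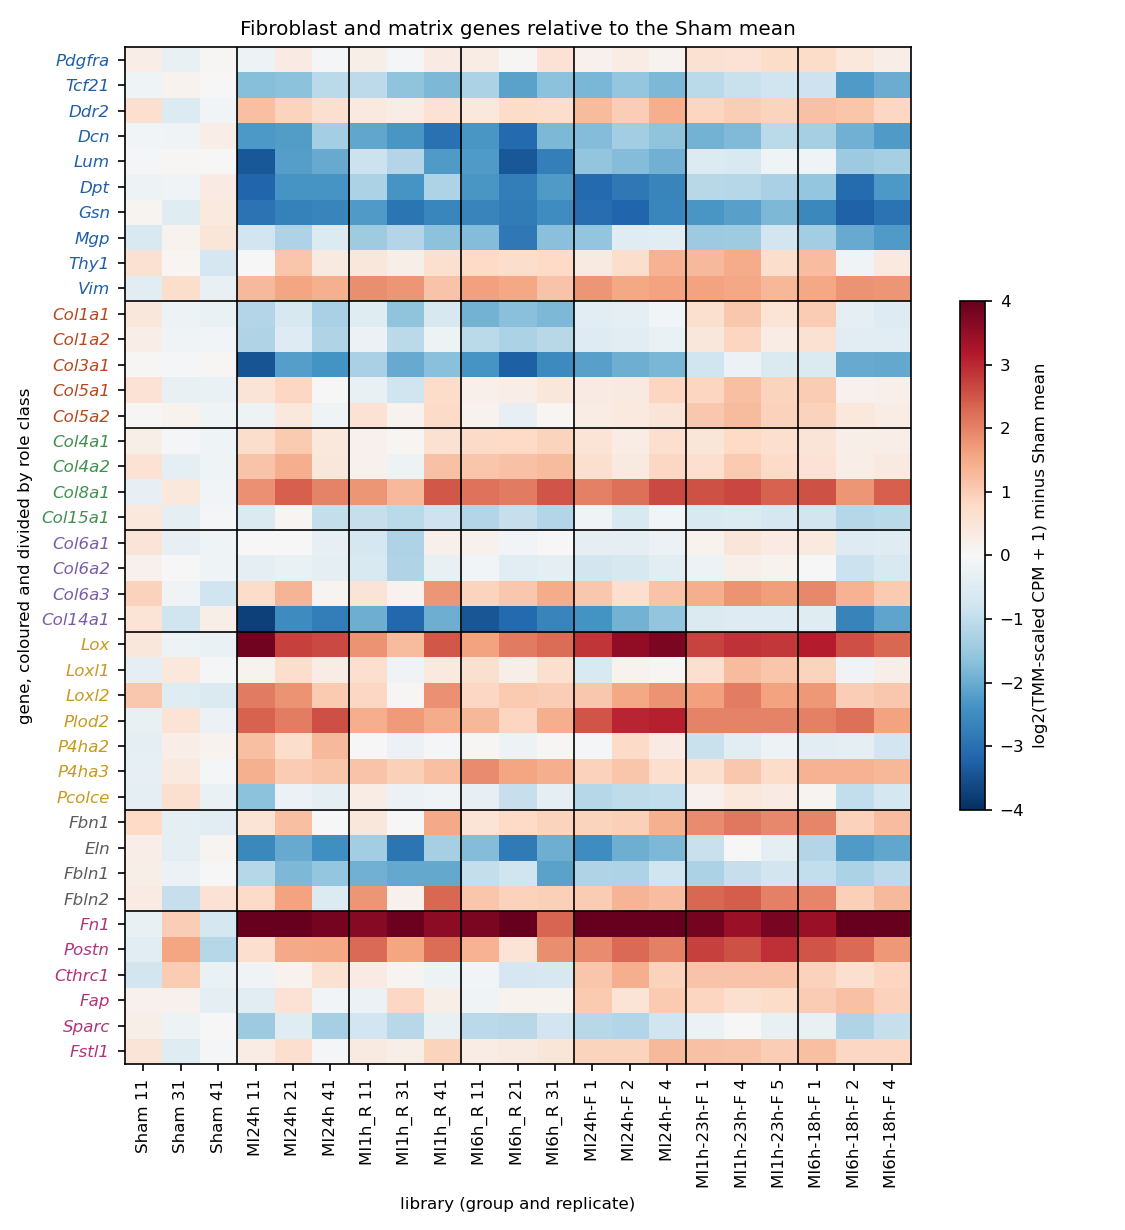
Heat map of log2(CPM + 1) of each of the 40 genes in each of the 21 libraries, minus the mean of the 3 Sham libraries, with genes in rows ordered and coloured by role class and libraries in columns ordered by group; the colour scale is clipped at -4 and 4, so Fn1 is saturated in part. Gsn, Dcn, Dpt and Col14a1 are blue and Fn1, Lox, Plod2 and Col8a1 red in every injured library.

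Permanent ligation was compared with Sham to see which matrix genes respond within 24 h. Of the 40 genes 11 were higher and 13 lower in MI24h, against 28% of all tested genes higher and 26.2% lower (54.3% in either direction), a share near that background. In MI1h_R 9 were higher and 13 lower, where the background was 25.4% and 24.1% (49.5% in all). In MI6h_R 8 were higher and 14 lower, against 29.3% and 28% (57.2% in all). With library size alone the split became 22 higher and 9 lower in MI24h, 20 and 7 in MI1h_R, and 23 and 10 in MI6h_R. Over all 11742 tested genes that scaling gave 6484 higher and 1504 lower, 6597 and 1273, and 6878 and 1510. On the TPM scale the split was 25 and 7, 23 and 5, and 24 and 8. All tested genes then gave 7375 and 1208, 6741 and 1148, and 7946 and 1172. Higher calls thus increased over all genes too under both scalings, which also holds for the class and list splits below. Under all 5 scalings 11 genes were higher and 7 lower in MI24h (26% and 10% of all tested genes), 8 and 5 in MI1h_R (22.6% and 9.45%), and 8 and 8 in MI6h_R (27.6% and 9.72%). The median log2 fold change of the 40 genes was 0.05 in MI24h, 0.06 in MI1h_R and 0.00 in MI6h_R, beside 0.07, 0.06 and 0.06 over all tested genes.

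**Figure D2:**
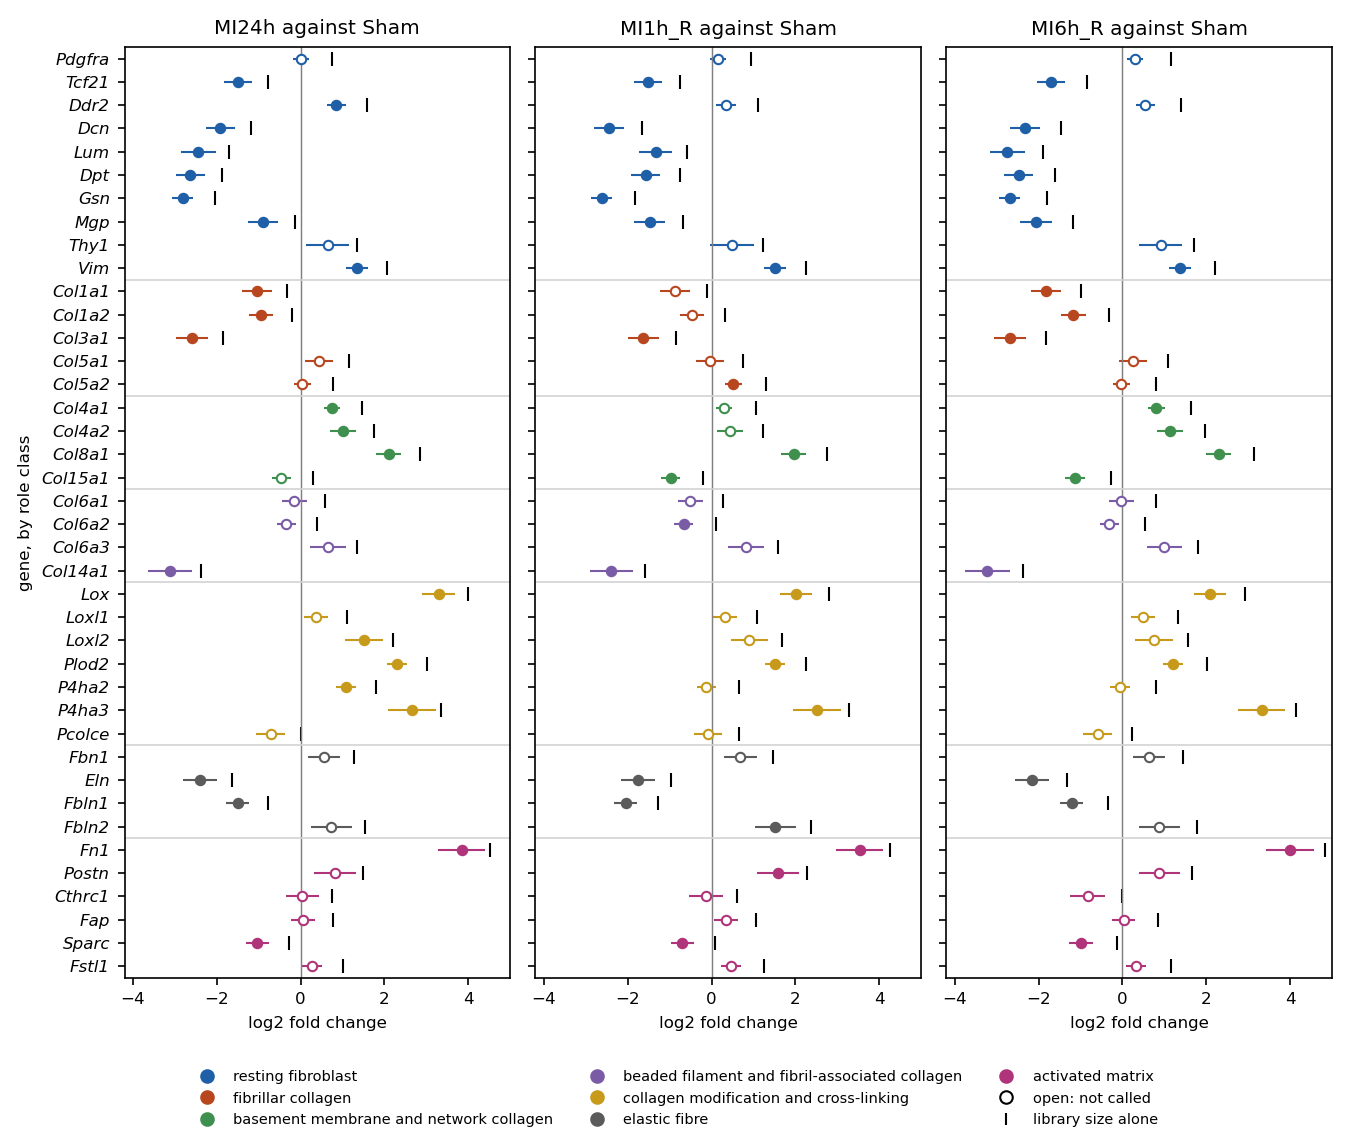
Log2 fold change against Sham of the 40 genes in MI24h, MI1h_R and MI6h_R, with 1 panel per comparison, points coloured by role class, bars of 1 standard error, filled points for genes called in edgeR and black ticks for the value with library size alone. The ticks lie to the right of the points throughout, and Gsn, Dcn, Col14a1 and Eln stay left of 0 and Fn1, Lox, Plod2 and Col8a1 right of 0 under both scalings.

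Resting fibroblast genes were more often lower than higher after injury with TMM, but not under every scaling. Of the 10, 6 were lower and 2 higher in MI24h, and 6 were lower and 1 higher in each of MI1h_R and MI6h_R. With library size alone 5 were lower and 4 higher in MI24h, 3 and 3 in MI1h_R and 6 and 4 in MI6h_R, and on the TPM scale 4 and 4, 2 and 4, and 5 and 4. Dcn and Gsn were lower under all 5 scalings in the 3 comparisons. The median log2 fold change of the 10 genes was -1.20, -1.41 and -1.88. Gsn encodes gelsolin, which severs actin filaments and is abundant in resting fibroblasts. Gsn stood at 1974, 1329 and 2409 CPM in Sham, 236, 285 and 294 in MI24h, 382, 242 and 304 in MI1h_R and 294, 265 and 330.0 in MI6h_R. No injured library reached the lowest Sham library. Gsn was 7.004-fold lower than Sham in MI24h, with log2 fold changes of -2.81 ± 0.25 (adjusted p = 2.96e-07) in MI24h, -2.62 ± 0.25 (adjusted p = 1.43e-06) in MI1h_R and -2.68 ± 0.25 (adjusted p = 2.51e-07) in MI6h_R. Dcn encodes decorin, a small proteoglycan that binds collagen fibrils and limits their width. Dcn measured 1226, 1214 and 1599.5 CPM in Sham, 268, 283 and 521 in MI24h, 316, 264 and 166 in MI1h_R and 264, 154 and 383 in MI6h_R. All 9 injured libraries lay below Sham. Dcn changed by -1.91 ± 0.35 (adjusted p = 0.00018) in MI24h, -2.44 ± 0.36 (adjusted p = 3.11e-05) in MI1h_R and -2.33 ± 0.36 (adjusted p = 2.63e-05) in MI6h_R. Lumican, the product of Lum, is another small proteoglycan of the fibril surface. Lum was read at 346, 375 and 371 CPM in Sham, 34.03, 78.8 and 88.8 in MI24h, 198, 159.8 and 75.01 in MI1h_R and 75.05, 33.7 and 53.97 in MI6h_R. MI1h_R libraries 11 and 31 lay above all MI24h and MI6h_R libraries, and all injured libraries lay below Sham. Lum changed by -2.44 ± 0.41 (adjusted p = 7.62e-05) in MI24h, -1.34 ± 0.39 (adjusted p = 0.00905) in MI1h_R and -2.75 ± 0.41 (adjusted p = 2.31e-05) in MI6h_R, and the call in MI1h_R was lost with library size alone, at -0.59 (adjusted p = 0.172). 

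Dpt encodes dermatopontin, which speeds collagen fibril assembly. Dpt stood at 253, 264 and 360.3 CPM in Sham, 31.04, 55.1 and 55.7 in MI24h, 119, 55.2 and 121 in MI1h_R and 57.1, 41.2 and 58.98 in MI6h_R. Its injured libraries all lay below Sham, and MI1h_R libraries 11 and 41 were the highest of them. Dpt changed by -2.63 ± 0.35 (adjusted p = 7.71e-06) in MI24h, -1.57 ± 0.34 (adjusted p = 0.000865) in MI1h_R and -2.48 ± 0.35 (adjusted p = 1.11e-05) in MI6h_R, and in MI1h_R library size alone gave -0.76 (adjusted p = 0.0561). Mgp, the calcification inhibitor matrix Gla protein, was at 551, 932 and 1188 CPM in Sham, 500.1, 359 and 579 in MI24h, 316, 372 and 271 in MI1h_R and 256, 116 and 268 in MI6h_R. In MI24h it overlapped Sham, and in both reperfused groups it did not. Mgp changed by -0.89 ± 0.36 (adjusted p = 0.0451) in MI24h, -1.48 ± 0.37 (adjusted p = 0.00281) in MI1h_R and -2.06 ± 0.37 (adjusted p = 0.000146) in MI6h_R. The MI24h call was lost with library size alone, at -0.14 (adjusted p = 0.724), on the TPM scale, at 0.15 (adjusted p = 0.689), and without Sham replicate 31 or 41 or MI24h replicate 11 or 21, where log2 fold changes ran from -0.92 to -0.64. In MI1h_R library size alone gave -0.68 (adjusted p = 0.0755). Tcf21, a transcription factor of the epicardial and fibroblast lineage, changed by -1.50 ± 0.33 (adjusted p = 0.000903) in MI24h, -1.52 ± 0.33 (adjusted p = 0.000972) in MI1h_R and -1.70 ± 0.33 (adjusted p = 0.000275) in MI6h_R and lost these calls on the TPM scale, at -0.50 (adjusted p = 0.131) in MI24h.

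Not all resting genes were lower. Vim, the intermediate filament vimentin of mesenchymal and immune cells, rose, from 919, 1989 and 1007 CPM in Sham to 2988, 3637 and 3297 in MI24h, 4449.9, 4125 and 2697 in MI1h_R and 3816, 3598 and 2702 in MI6h_R. No injured library overlapped Sham. Vim changed by 1.34 ± 0.26 (adjusted p = 0.000312) in MI24h, 1.53 ± 0.26 (adjusted p = 0.000132) in MI1h_R and 1.37 ± 0.26 (adjusted p = 0.000238) in MI6h_R. Monocytes and macrophages share vimentin. Their summed markers were at 566.8 to 2706 CPM in Sham and 4999 to 7098 in MI24h. The sums were 4490 to 5590 CPM in MI1h_R and 3346 to 8822 in MI6h_R. The part of these cells in Vim was not tested. The collagen receptor kinase Ddr2 was at 56.3, 23.9 and 33.01 CPM in Sham and 82.6, 66.2 and 55.9 in MI24h, where the groups overlapped by 1 library each, and changed by 0.85 ± 0.23 (adjusted p = 0.00481). In MI1h_R and MI6h_R it was not called. Pdgfra, the growth factor receptor that marks cardiac fibroblasts, was at 207, 141 and 178 CPM in Sham and 149.7, 216 and 164 in MI24h, with a log2 difference of 0.01 ± 0.18 (adjusted p = 0.966). Pdgfra with library size alone was 0.75 (adjusted p = 0.00354). Thy1 was low throughout, at 0.768 to 3.31 CPM in Sham, and was not called in any of the 3 comparisons.

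**Figure D3:**
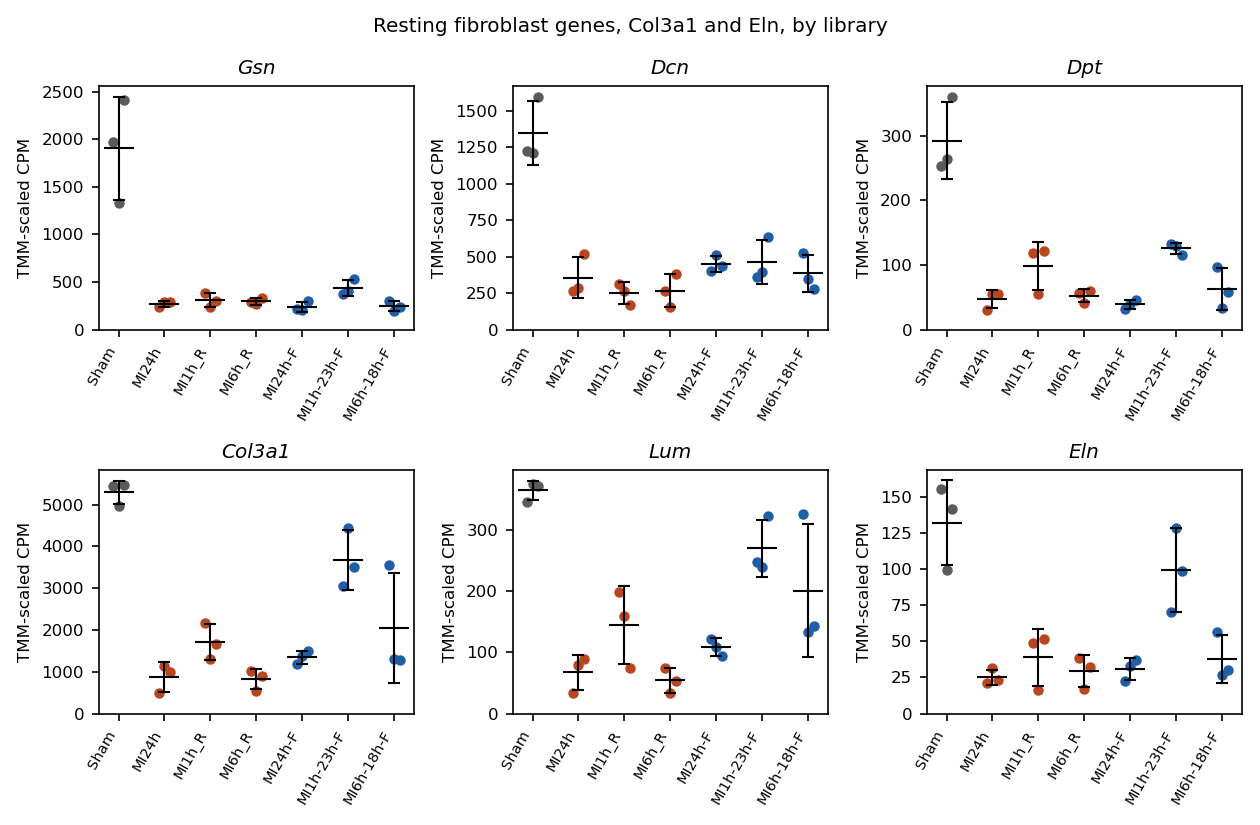
TMM-scaled CPM of Gsn, Dcn, Dpt, Col3a1, Lum and Eln in each library (points) by group, with the mean and 1 SD of the 3 libraries as bars, Sham in grey, groups without F in orange and groups with F in blue. Col3a1 lies at 4967 CPM or more in all 3 Sham libraries and at 2160 or less in all libraries of MI24h, MI1h_R and MI6h_R.

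Fibrillar collagens did not move as a block. Of the 5, 3 were lower in MI24h, 1 was lower and 1 higher in MI1h_R, and 3 were lower in MI6h_R. Scaled by library size alone, 2 were higher and 1 lower in MI24h, 1 and 1 in MI1h_R, and 2 and 2 in MI6h_R. Col3a1 encodes the chain of type III collagen, the fine reticular fibre of the heart. Col3a1 stood at 5439.9, 4967 and 5465 CPM in Sham, 482, 1147 and 1006 in MI24h, 2159.7, 1312 and 1659.8 in MI1h_R and 1020.0, 552 and 907 in MI6h_R. Every injured library was below every Sham library, and MI24h replicate 11 was the lowest of all. Col3a1 changed by -2.59 ± 0.39 (adjusted p = 2.38e-05) in MI24h, -1.63 ± 0.37 (adjusted p = 0.00151) in MI1h_R and -2.68 ± 0.39 (adjusted p = 1.55e-05) in MI6h_R, and the MI1h_R call was lost on the TPM scale, at -0.76 (adjusted p = 0.0713). Type I collagen, the stiff fibre of scar, is a trimer of the products of Col1a1 and Col1a2. Col1a1 was at 1704, 1082 and 1032 CPM in Sham, 546, 793 and 505 in MI24h, 890.3, 409.7 and 795 in MI1h_R and 334, 391 and 355 in MI6h_R. Its injured libraries lay below Sham on this scale. Col1a1 differed from Sham by -1.05 ± 0.36 (adjusted p = 0.0192) in MI24h, -0.87 ± 0.36 (adjusted p = 0.0517) in MI1h_R and -1.82 ± 0.37 (adjusted p = 0.000372) in MI6h_R, and its MI24h and MI6h_R calls were lost on the TPM scale, at -0.03 (adjusted p = 0.949) and -0.58 (adjusted p = 0.189). For library size alone the MI24h value was -0.33 (adjusted p = 0.46). In MI24h the call was also lost without Sham replicate 11 at -0.79 (adjusted p = 0.0866), without MI24h replicate 11 at -0.97 (adjusted p = 0.0671) and without MI24h replicate 41 at -0.92 (adjusted p = 0.07).

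Col1a2 was at 1453, 1097 and 1115 CPM in Sham, 522, 849 and 529 in MI24h, 1039, 569 and 1048 in MI1h_R and 576, 498 and 556 in MI6h_R. It followed Col1a1 from library to library, with a Pearson correlation of 0.966 and a Spearman correlation of 0.906 over the 21 libraries, which share their scaling. Col1a2 differed from Sham by -0.95 ± 0.29 (adjusted p = 0.0106) in MI24h, -0.46 ± 0.29 (adjusted p = 0.195) in MI1h_R and -1.17 ± 0.29 (adjusted p = 0.0024) in MI6h_R. On the TPM scale its sign turned, to 0.03 (adjusted p = 0.93) in MI24h and 0.04 (adjusted p = 0.925) in MI6h_R, and without MI24h replicate 11 the MI24h value was -0.82 (adjusted p = 0.0522). The ratio of type III to type I message, which does not depend on library scaling, was a mean of 3.97 for Col3a1 over Col1a1 in TPM in Sham, with a range of 2.91 to 4.82. It was 1.31 in MI24h (0.804 to 1.81), 2.34 in MI1h_R (1.90 to 2.92) and 2.13 in MI6h_R (1.28 to 2.78). MI24h did not overlap Sham, and the highest MI1h_R library was just above the lowest Sham library. The type V chains that start fibrils, Col5a1 and Col5a2, were not called in MI24h or MI6h_R. Col5a2 was at 203, 218 and 174 CPM in Sham and 299, 217 and 339.6 in MI1h_R, with an overlap of 1 library, and changed by 0.52 ± 0.21 (adjusted p = 0.0472). That call was lost without any 1 of Sham replicate 11 or 41 or MI1h_R replicate 11 or 41, with values of 0.38 to 0.53.

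Among basement membrane and network collagens, Col8a1 rose in all 3 comparisons, and Col4a1 and Col4a2 in MI24h and MI6h_R. Of the 4, 3 rose in MI24h, 1 rose and 1 fell in MI1h_R, and 3 rose and 1 fell in MI6h_R, while with library size alone 3 rose and none fell in each. Col4a1 and Col4a2 encode the chains of the main type IV collagen network and lie head to head on the genome, reading away from each other. The stretch of 76 bases between their annotated starts is shown because the genes are read from its ends in opposite directions, at chr16:84885521-84885596 on the plus strand of GRCr8 in RefSeq, the strand of Col4a1. Capitals mark GGGCGG, the GC box, on either strand.
Col4a2 to Col4a1: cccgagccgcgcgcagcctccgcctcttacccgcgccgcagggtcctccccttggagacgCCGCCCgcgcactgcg
GGGCGG was present on either strand in 30.5% of 33465 windows of 250 bases before annotated starts, and in 13 of the 28 genes of the list that had such a window. CCAAT, the CAAT box, was found in 34% of windows and in 7 of the 28. Col4a1 and Col4a2 were among the 7, with CCAAT 170 and 105 bases before their starts. It did not lie in the 76 bases between these starts. Col4a1 stood at 2447, 2011 and 1844 CPM in Sham, 3408, 4342 and 2809 in MI24h, 2367, 2225 and 3156 in MI1h_R and 3568, 3588 and 3871 in MI6h_R. MI24h and MI6h_R did not overlap Sham, and MI1h_R did. Col4a1 differed from Sham by 0.74 ± 0.20 (adjusted p = 0.00391) in MI24h, 0.30 ± 0.20 (adjusted p = 0.221) in MI1h_R and 0.81 ± 0.20 (adjusted p = 0.00202) in MI6h_R. Col4a2 was at 817, 419.6 and 488 CPM in Sham, 1216, 1514 and 761 in MI24h, 623, 482 and 1236 in MI1h_R and 1191, 1252 and 1338 in MI6h_R. MI24h replicate 41 lay below the highest Sham library. Col4a2 differed from Sham by 1.02 ± 0.31 (adjusted p = 0.0106) in MI24h, 0.44 ± 0.31 (adjusted p = 0.251) in MI1h_R and 1.13 ± 0.31 (adjusted p = 0.00498) in MI6h_R, and without MI24h replicate 21 its MI24h value was 0.78 (adjusted p = 0.0613). Over the 21 libraries the pair had a Pearson correlation of 0.956 and a Spearman correlation of 0.948, against -0.15 and -0.24 for Col4a1 with Col1a1.

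Col8a1 encodes a short-chain network collagen of vessel walls and injured heart. Col8a1 measured 14.5, 24.6 and 17.00 CPM in Sham, 67.6, 99.2 and 74.9 in MI24h, 64.3, 46.2 and 108 in MI1h_R and 84.9, 79.8 and 110.0 in MI6h_R. Every injured library was above every Sham library. Col8a1 was 4.31-fold higher in MI24h, with log2 fold changes of 2.11 ± 0.30 (adjusted p = 1.41e-05) in MI24h, 1.96 ± 0.30 (adjusted p = 4.06e-05) in MI1h_R and 2.29 ± 0.30 (adjusted p = 5.46e-06) in MI6h_R. Col15a1, which links basement membranes to fibrils, was at 681, 394 and 498 CPM in Sham, 344, 538 and 265 in MI24h, 269, 244 and 287 in MI1h_R and 225, 271 and 224 in MI6h_R. Its counts are identical to those of LOC108348074 in every library, so the 2 genes cannot be told apart. Col15a1 differed from Sham by -0.46 ± 0.23 (adjusted p = 0.104) in MI24h, -0.98 ± 0.23 (adjusted p = 0.00204) in MI1h_R and -1.13 ± 0.23 (adjusted p = 0.000504) in MI6h_R, and the calls of both reperfused groups were lost with library size alone, at -0.21 (adjusted p = 0.49) in MI1h_R and -0.28 (adjusted p = 0.354) in MI6h_R, while the TPM value in MI6h_R was 0.10 (adjusted p = 0.767). The summed endothelial markers of MI6h_R, 1464 to 1783 CPM, lay inside the Sham range. In TPM these sums were 682.5 to 746.5 in MI6h_R and 237.2 to 474 in Sham, without overlap. The part of endothelial cells in the type IV result was not tested.

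Among beaded filament and fibril-associated collagens, Col14a1 moved in all 3 comparisons. Col14a1 encodes a collagen that sits on the surface of type I fibrils. Col14a1 stood at 162, 62.3 and 129.6 CPM in Sham, 7.29, 18.2 and 15.1 in MI24h, 27.8, 11.6 and 27.7 in MI1h_R and 9.31, 11.9 and 16.8 in MI6h_R. All injured libraries were below the lowest Sham library, which was itself well under the other two. Col14a1 was 8.69-fold lower in MI24h, with log2 fold changes of -3.12 ± 0.53 (adjusted p = 8.20e-05) in MI24h, -2.40 ± 0.51 (adjusted p = 0.000819) in MI1h_R and -3.22 ± 0.53 (adjusted p = 5.44e-05) in MI6h_R. The microfibril chains Col6a1 and Col6a3 were not called in any of the 3. Col6a2 was at 607, 527 and 477 CPM in Sham and 354, 234 and 433 in MI1h_R, without overlap, and changed by -0.66 ± 0.23 (adjusted p = 0.0221). With library size alone its sign turned, to 0.12 (adjusted p = 0.696), and the call was also lost without Sham replicate 11 at -0.57 (adjusted p = 0.0683) and without MI1h_R replicate 31 at -0.44 (adjusted p = 0.122).

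Among the genes that modify and cross-link collagen, Lox, Plod2 and P4ha3 rose in all 3 comparisons. Of the 7, 5 rose in MI24h and none fell, and 3 rose and none fell in each of MI1h_R and MI6h_R. When only library size was used, 6 rose and none fell in each comparison. The lysyl oxidase Lox forms the cross-links of collagen and elastin outside the cell. Lox stood at 11.3, 6.83 and 6.47 CPM in Sham, 129, 58.9 and 54.8 in MI24h, 30.5, 20.4 and 48.9 in MI1h_R and 26.6, 37.2 and 40.96 in MI6h_R. No injured library came near Sham, MI24h replicate 11 was the highest, and the MI1h_R and MI6h_R libraries all lay below the 3 of MI24h. Lox was 9.81-fold higher in MI24h, with log2 fold changes of 3.29 ± 0.39 (adjusted p = 2.49e-06) in MI24h, 2.02 ± 0.38 (adjusted p = 0.000286) in MI1h_R and 2.08 ± 0.38 (adjusted p = 0.000148) in MI6h_R. The related Loxl1, which acts on elastin, was not called in these comparisons, and the TPM ratio of Lox to Loxl1 went from a mean of 0.136 in Sham (0.0791 to 0.223) to 1.02 in MI24h (0.555 to 1.81), 0.404 in MI1h_R (0.293 to 0.573) and 0.387 in MI6h_R (0.262 to 0.491). Loxl2, a further oxidase, was at 45.5, 14.7 and 13.7 CPM in Sham and 92.7, 75.5 and 44.1 in MI24h, overlapping by 1 library in each, and rose by 1.52 ± 0.45 (adjusted p = 0.00808).

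Plod2 encodes the lysyl hydroxylase of collagen telopeptides, which makes stable cross-links possible, and P4ha2 the catalytic chain of a prolyl hydroxylase that stabilises the triple helix. Both belong to the known targets of hypoxia-inducible factors, whose binding core reads ACGTG or GCGTG. The 250 bases before each annotated start are shown for this reason, with these letters in capitals on either strand, so that CACGT and CACGC are the same motifs read on the other strand. The P4ha2 window lies at chr10:38743644-38743893 and the Plod2 window at chr8:101964068-101964317, both on the plus strand of GRCr8 in RefSeq.
P4ha2: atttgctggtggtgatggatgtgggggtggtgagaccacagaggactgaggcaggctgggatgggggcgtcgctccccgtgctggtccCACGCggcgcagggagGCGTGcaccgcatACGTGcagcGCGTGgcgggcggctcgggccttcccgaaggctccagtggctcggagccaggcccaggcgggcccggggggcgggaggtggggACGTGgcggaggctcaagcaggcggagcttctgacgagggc
Plod2: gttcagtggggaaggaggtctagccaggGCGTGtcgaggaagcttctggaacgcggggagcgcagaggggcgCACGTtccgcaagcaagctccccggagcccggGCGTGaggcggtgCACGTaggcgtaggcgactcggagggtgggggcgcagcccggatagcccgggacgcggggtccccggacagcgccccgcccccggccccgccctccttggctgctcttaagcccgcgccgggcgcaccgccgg
ACGTG lay 133 and 41 bases before the start of P4ha2, and lay 178 and 133 bases before that of Plod2 on the minus strand. ACGTG was present in 16.6% of 33465 windows, GCGTG in 25.9% and both in 5.76%. Of the 28 listed genes with a window, Plod2 and P4ha2 were the 2 with ACGTG and the 2 with both, and 11 had GCGTG. A match describes these letters and is not evidence of binding. Lox had no window in the table.

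Plod2 stood at 59.3, 106 and 60.98 CPM in Sham, 379, 302 and 439 in MI24h, 203, 237 and 203 in MI1h_R and 185, 133 and 201 in MI6h_R. All injured libraries were above Sham, with the 3 of MI24h on top. Plod2 was 4.95-fold higher in MI24h, with log2 fold changes of 2.31 ± 0.24 (adjusted p = 8.68e-07) in MI24h, 1.51 ± 0.24 (adjusted p = 5.74e-05) in MI1h_R and 1.20 ± 0.24 (adjusted p = 0.000303) in MI6h_R. P4ha2 measured 30.3, 48.3 and 44.1 CPM in Sham, 94.1, 65.4 and 99.5 in MI24h, 40.2, 34.2 and 38.3 in MI1h_R and 41.5, 34.9 and 41.4 in MI6h_R. MI24h stood clear of Sham, MI1h_R and MI6h_R, while MI1h_R and MI6h_R lay inside the Sham range. P4ha2 differed from Sham by 1.08 ± 0.23 (adjusted p = 0.000801) in MI24h, -0.12 ± 0.23 (adjusted p = 0.688) in MI1h_R and -0.06 ± 0.23 (adjusted p = 0.842) in MI6h_R. P4ha3, an alternative catalytic chain, was scarce, with at most 7 counts in a Sham library and 20 to 76 in the libraries of the 3 injured groups. P4ha3 stood at 0, 0.637 and 0.219 CPM in Sham, 2.40, 1.53 and 1.71 in MI24h, 1.79, 1.45 and 1.90 in MI1h_R and 3.68, 2.77 and 2.48 in MI6h_R. No library of the 3 injured groups overlapped Sham, and P4ha3 changed by 2.66 ± 0.57 (adjusted p = 0.000743) in MI24h, 2.53 ± 0.57 (adjusted p = 0.00135) in MI1h_R and 3.32 ± 0.56 (adjusted p = 7.31e-05) in MI6h_R, values that depend on the low Sham counts. Pcolce, which speeds the cutting of procollagen, was not called.

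**Figure D4:**
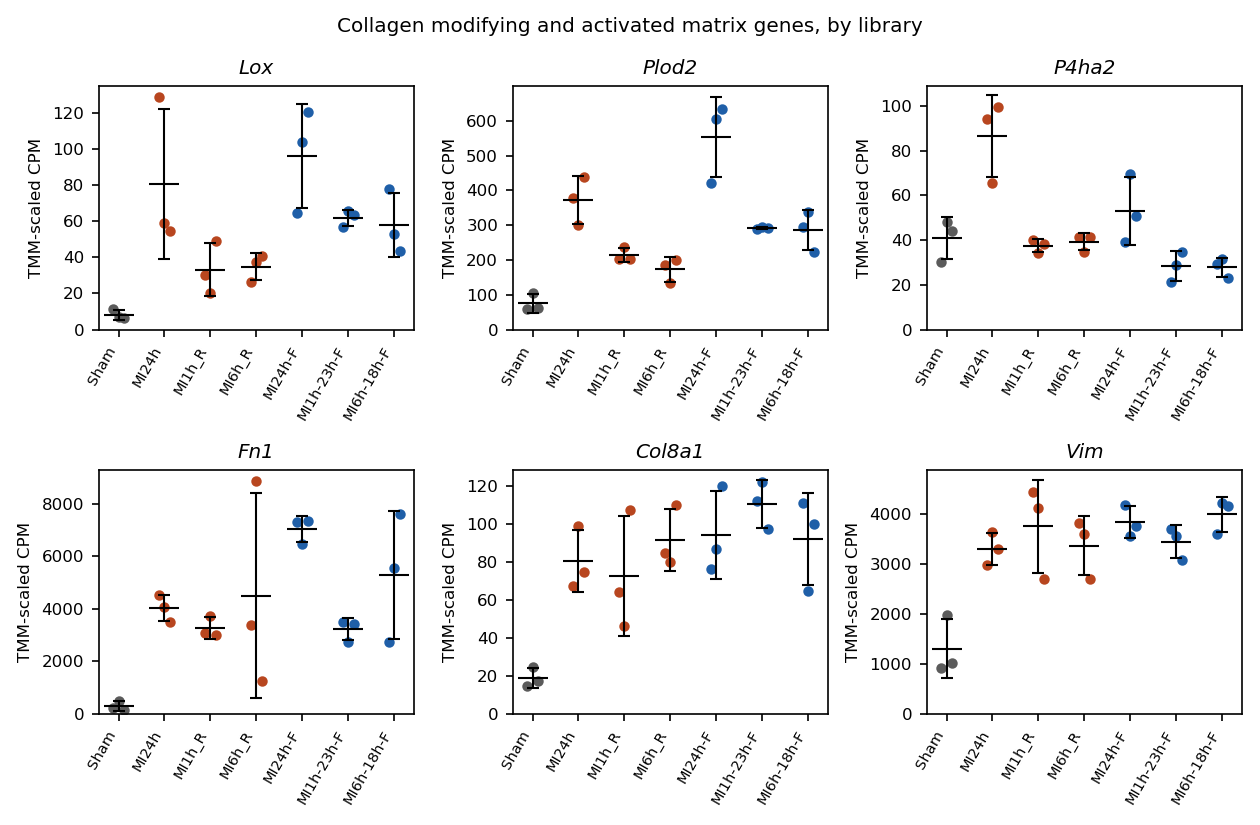
TMM-scaled CPM of Lox, Plod2, P4ha2, Fn1, Col8a1 and Vim in each library (points) by group, with the mean and 1 SD of the 3 libraries as bars, Sham in grey, groups without F in orange and groups with F in blue. P4ha2 is at 65.4 CPM or more in the 3 MI24h libraries and at 34.2 to 41.5 in the 6 libraries of MI1h_R and MI6h_R, and Fn1 spreads from 1257 to 8848 CPM within MI6h_R.

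Elastic fibre genes did not move together. Eln and Fbln1 were lower in each of the 3 comparisons, and Fbn1 was not called in any. Eln encodes tropoelastin, the stretch protein of vessels. Eln stood at 155, 99.4 and 141 CPM in Sham, 21.1, 31.2 and 22.9 in MI24h, 49.1, 16.2 and 51.5 in MI1h_R and 38.3, 17.3 and 32.5 in MI6h_R. All injured libraries were below Sham, with the lowest in MI1h_R replicate 31. Eln changed by -2.40 ± 0.41 (adjusted p = 9.16e-05) in MI24h, -1.76 ± 0.40 (adjusted p = 0.00139) in MI1h_R and -2.17 ± 0.41 (adjusted p = 0.000195) in MI6h_R. Of 8 smooth muscle and pericyte markers, from cells that also make elastin, 2 were lower and none higher in MI24h, 2 lower and 1 higher in MI1h_R, and 2 lower and 2 higher in MI6h_R. The shares lower were near those of all tested genes given above. Rgs5, a pericyte marker, changed by -2.73 ± 0.34 (adjusted p = 3.32e-06) in MI24h, -1.34 ± 0.32 (adjusted p = 0.00194) in MI1h_R and -1.60 ± 0.32 (adjusted p = 0.000352) in MI6h_R, and Tagln, a contractile gene, by -2.29 ± 0.35 (adjusted p = 2.56e-05) in MI24h and -1.10 ± 0.33 (adjusted p = 0.00897) in MI6h_R. Other markers went the other way. Cnn1 was at 3.31, 4.55 and 6.80 CPM in Sham and 20.3, 10.7 and 10.7 in MI1h_R. Pdgfrb was at 212, 198 and 166 CPM in Sham and 337, 283 and 316 in MI6h_R. Scaled by library size alone, 4, 3 and 5 of the 8 markers were higher and 2, 0 and 0 lower. The part of these cells in Eln was not tested. Fibulin-1, from Fbln1, binds fibronectin and elastin. Fbln1 was at 182, 129.9 and 153 CPM in Sham, 68.9, 43.6 and 51.97 in MI24h, 40.1, 36.2 and 36.1 in MI1h_R and 78.9, 87.6 and 34.01 in MI6h_R. No injured library reached Sham. Fbln1 changed by -1.50 ± 0.27 (adjusted p = 0.000138) in MI24h, -2.05 ± 0.27 (adjusted p = 1.26e-05) in MI1h_R and -1.21 ± 0.27 (adjusted p = 0.000789) in MI6h_R, and on the TPM scale the calls of MI24h and MI6h_R were lost, at -0.43 (adjusted p = 0.187) and -0.02 (adjusted p = 0.96). Fbln2, which is known to rise in remodelling vessels and scars, was at 93.6, 38.9 and 112 CPM in Sham and 254, 82.9 and 365 in MI1h_R. MI1h_R replicate 31 lay inside the Sham range. Fbln2 changed by 1.53 ± 0.50 (adjusted p = 0.016) in MI1h_R, and without Sham replicate 31 the value was 1.22 (adjusted p = 0.0628) and without MI1h_R replicate 41 1.06 (adjusted p = 0.0994).

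Of the 6 activated matrix genes, fibronectin stood apart. Fn1 rose in all 3 comparisons, Sparc was lower in all 3 and Postn rose in MI1h_R, while with library size alone 4 of the 6 rose and none fell in each comparison. Fn1 encodes the early provisional matrix of wounds. Fn1 stood at 203, 489 and 152 CPM in Sham, 4528, 4054 and 3509.5 in MI24h, 3071, 3740.1 and 2992 in MI1h_R and 3381, 8848 and 1257 in MI6h_R. Every injured library exceeded every Sham library, and the 3 of MI6h_R spread over a wide range, with replicate 21 high and replicate 31 low. Fn1 was 14.3-fold higher in MI24h, with log2 fold changes of 3.84 ± 0.57 (adjusted p = 2.14e-05) in MI24h, 3.54 ± 0.56 (adjusted p = 6.08e-05) in MI1h_R and 4.0 ± 0.57 (adjusted p = 1.35e-05) in MI6h_R. The summed monocyte and macrophage markers of MI6h_R ran from 3346 to 8822 CPM, and their part in Fn1 was not tested. The TPM ratio of Dcn to Fn1 had a mean of 37.1 in Sham (14.5 to 61.5) and 0.545 in MI24h (0.348 to 0.876), 0.449 in MI1h_R (0.326 to 0.608) and 0.789 in MI6h_R (0.102 to 1.80).

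Postn encodes periostin, the matricellular protein of activated fibroblasts. Postn was at 107, 441 and 65.5 CPM in Sham, 231, 423 and 432 in MI24h, 704, 433 and 693 in MI1h_R and 386, 214 and 527 in MI6h_R. Sham replicate 31 was far above the other 2 Sham libraries. It was also above all MI24h libraries, MI1h_R replicate 31 and MI6h_R replicates 11 and 21. Postn differed from Sham by 0.82 ± 0.49 (adjusted p = 0.167) in MI24h, 1.58 ± 0.50 (adjusted p = 0.014) in MI1h_R and 0.88 ± 0.49 (adjusted p = 0.135) in MI6h_R. In MI1h_R the value was 1.24 (adjusted p = 0.0652) without Sham replicate 11, 1.14 (adjusted p = 0.0631) without Sham replicate 41 and 2.85 (adjusted p = 1.12e-05) without Sham replicate 31. Sparc, the collagen chaperone of the pericellular space, was at 3069, 2293 and 2572 CPM in Sham, 957, 1870.3 and 1049 in MI24h, 1539, 1225 and 2135 in MI1h_R and 1232, 1215 and 1553 in MI6h_R. It lay below Sham in every injured library on this scale. Sparc changed by -1.03 ± 0.28 (adjusted p = 0.00399) in MI24h, -0.70 ± 0.27 (adjusted p = 0.0425) in MI1h_R and -0.99 ± 0.28 (adjusted p = 0.00513) in MI6h_R, but with library size alone it was -0.29 (adjusted p = 0.412) in MI24h and turned to 0.09 (adjusted p = 0.805) in MI1h_R, and on the TPM scale it turned to 0.21 (adjusted p = 0.549) in MI6h_R. The MI1h_R call of Sparc was also lost without Sham replicate 11 or 41 or MI1h_R replicate 11 or 31, with values of -0.71 to -0.52. Cthrc1, Fap and Fstl1, further genes of activated fibroblasts, were not called in MI24h, MI1h_R or MI6h_R against Sham. Cthrc1 was at 1.98 to 8.92 CPM in Sham and 2.11 to 6.51 in these 3 groups.

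The wider pathway lists were counted beside the shares over all tested genes given above, which were 28% higher and 26.2% lower in MI24h, 25.4% and 24.1% in MI1h_R, and 29.3% and 28% in MI6h_R. These lists were chosen with earlier results of these data known, so their counts describe the lists and do not test them against that background. Of 10 tested genes of procollagen folding and export, 10 were higher in MI24h than in Sham, 8 in MI1h_R and 7 in MI6h_R, and none was lower. All 10 were higher in each comparison with library size alone and on the TPM scale. Plod3, a lysyl hydroxylase, changed by 1.33 ± 0.16 (adjusted p = 2.91e-06) in MI24h, P4hb, the shared chain of the prolyl hydroxylases, by 1.24 ± 0.21 (adjusted p = 7.18e-05), Fkbp10, a collagen chaperone, by 0.98 ± 0.18 (adjusted p = 0.000165) and Creb3l1, a transcription factor of secretory load, by 1.46 ± 0.20 (adjusted p = 8.63e-06). Of 11 genes of TGF-beta signalling and response, 7 were higher in MI24h, and 6 in MI1h_R and 6 in MI6h_R, with 1 lower in the last, while library size alone gave 9, 11 and 9 higher and none lower. Ltbp2, a matrix protein of the latent TGF-beta binding family, changed by 3.49 ± 0.39 (adjusted p = 1.22e-06) in MI24h, Ccn2 by 2.90 ± 0.40 (adjusted p = 1.13e-05) and the ligand gene Tgfb2 by 2.67 ± 0.28 (adjusted p = 8.76e-07).

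Of 7 tested matrix receptors, 4 were higher and 2 lower in each of MI24h, MI1h_R and MI6h_R, and library size alone gave 4 higher in each and 0, 0 and 1 lower. The share of receptors lower in MI24h was near that of all tested genes. The hyaluronan receptor Cd44 changed by 3.11 ± 0.34 (adjusted p = 1.21e-06) and the syndecan Sdc4 by 2.28 ± 0.32 (adjusted p = 1.12e-05) in MI24h. Of 8 laminins and other basement membrane genes, 2 were higher and 2 lower in MI24h, and 1 higher and 3 lower in each of MI1h_R and MI6h_R, while library size alone gave 5, 2 and 5 higher and 1 lower in each. The MI24h shares of this list were near those of all tested genes. Col18a1, the source of endostatin, changed by 3.08 ± 0.30 (adjusted p = 4.76e-07) in MI24h, and Lama2, the laminin chain of muscle, by -2.43 ± 0.36 (adjusted p = 2.42e-05).

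Early and late reperfusion were then compared with permanent ligation, which asks whether restored flow changes the matrix response at 24 h. In MI1h_R against MI24h, 2 of the 40 genes were lower and none was higher, where 2.81% of all tested genes were lower and 1.51% higher (4.32% in all). P4ha2, at 40.2, 34.2 and 38.3 CPM against 94.1, 65.4 and 99.5, changed by -1.20 ± 0.23 (adjusted p = 0.00806). Lox, at 30.5, 20.4 and 48.9 CPM against 129, 58.9 and 54.8, changed by -1.28 ± 0.36 (adjusted p = 0.0495). Neither gene overlapped between the groups. P4ha2 was called under all 5 scalings and Lox was not. Without MI24h replicate 11 the value was -1.13 (adjusted p = 0.0544) for P4ha2 and -0.77 (adjusted p = 0.391) for Lox. Without MI1h_R replicate 31 it was -1.14 (adjusted p = 0.0546) for P4ha2 and -1.02 (adjusted p = 0.22) for Lox, and without MI1h_R replicate 11 -1.22 (adjusted p = 0.151) for Lox. Fitted on these 2 groups alone, edgeR called neither of them and none of all the genes tested.

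In MI6h_R against MI24h, 2 genes were again lower, beside 0.392% of all tested genes lower and 0.111% higher (0.502% in all). P4ha2, at 41.5, 34.9 and 41.4 CPM in MI6h_R, changed by -1.14 ± 0.23 (adjusted p = 0.0273), and Plod2, at 185, 133 and 201 CPM against 379, 302 and 439, by -1.11 ± 0.23 (adjusted p = 0.0356). Both calls were lost when MI24h replicate 11 or 41 or any 1 library of MI6h_R was left out, with values of -1.18 to -1.02 for P4ha2 and -1.23 to -0.95 for Plod2, and under library size alone. The MI24h libraries are shared with the MI1h_R comparison. Plod2 in MI1h_R against MI24h was -0.80 ± 0.23 (adjusted p = 0.0566) and Lox in MI6h_R against MI24h was -1.21 ± 0.36 (adjusted p = 0.182). Among the wider pathway genes Plod1, a further lysyl hydroxylase, was lower in both, by -0.67 ± 0.12 (adjusted p = 0.00607) and -0.64 ± 0.12 (adjusted p = 0.0192). Nid2, a linker of basement membranes, was lower by -1.13 ± 0.22 (adjusted p = 0.00806) and -1.04 ± 0.22 (adjusted p = 0.0347).

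MI1h_R and MI6h_R were compared with each other to set early against late reperfusion. None of the 40 genes was called by edgeR, against 2.41% of all tested genes (1.26% higher and 1.15% lower), while 9 had an unadjusted p under 0.05, and DESeq2 called 4, limma-voom with quality weights 10 and the TPM fit 3. No share over all genes is given for counts at an unadjusted p, here or below, so these counts are not read as a result. Over all genes DESeq2 called 456 higher and 460 lower. Of the 11742 tested, limma-voom called 1369 and 1651 and the TPM fit 90 and 876, shares near those of the 40 genes. The smallest p was that of Lum, at 198, 159.8 and 75.01 CPM in MI1h_R and 75.05, 33.7 and 53.97 in MI6h_R, with a difference of 1.41 ± 0.40 (adjusted p = 0.0619). MI1h_R replicate 41 lay just below the highest MI6h_R library. Col3a1 and Col1a1 did not overlap between these groups and differed by 1.05 ± 0.37 (adjusted p = 0.116) and 0.95 ± 0.36 (adjusted p = 0.137).

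The 3 groups with F were also compared with Sham. MI24h-F had 14 of the 40 higher and 12 lower, where all tested genes gave 30.7% and 30.1% (60.8% in all). MI1h-23h-F had 22 higher and 7 lower, against 23.9% and 24.2% (48.2% in all), and MI6h-18h-F 16 and 11, against 28.6% and 28.5% (57.2% in all). The share of higher genes in MI1h-23h-F was above its background. All 6 comparisons with Sham share the Sham libraries. With library size alone the splits were 22 and 8, 27 and 2, and 24 and 6. On the TPM scale they were 24 and 5, 29 and 1, and 27 and 4. Over all tested genes library size alone gave 6372 higher and 1945 lower, 6626 and 1040, and 6490 and 1560. The TPM scale gave 7140 and 1546, 7772 and 804, and 7373 and 1272 over all tested genes. Under all 5 scalings 14 were higher and 5 lower in MI24h-F, 21 and 1 in MI1h-23h-F and 16 and 4 in MI6h-18h-F, where all tested genes gave 29.8% and 13%, 22% and 6.47%, and 27% and 10.6%. Of the called genes, 20 of 26, 20 of 29 and 19 of 27 kept their call when any 1 library was left out. No Sham library carries F, so F cannot be told apart from injury in these contrasts.

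Activated matrix genes were among those that rose, with 5 of 6 higher in MI24h-F, 5 in MI1h-23h-F and 4 in MI6h-18h-F. Cthrc1 lost its MI24h-F call without Sham replicate 11 or 41 or MI24h-F replicate 2. In MI1h-23h-F its call was lost without Sham replicate 11 or 41 or any 1 library of MI1h-23h-F. The Fap call in MI1h-23h-F was lost without Sham replicate 41 or MI1h-23h-F replicate 1 or 5. Sparc was lower in MI24h-F, where it changed by -1.03 ± 0.28 (adjusted p = 0.00347), and in MI6h-18h-F, where it changed by -0.76 ± 0.27 (adjusted p = 0.0238), with -0.28 (adjusted p = 0.411) and 0.03 (adjusted p = 0.937) for library size alone. Fstl1, a secreted glycoprotein of injured heart, was at 209, 106 and 144 CPM in Sham, 271, 274 and 361 in MI24h-F, 334, 328 and 293 in MI1h-23h-F and 342, 261 and 263 in MI6h-18h-F. All 9 libraries with F exceeded Sham. Fstl1 changed by 0.98 ± 0.24 (adjusted p = 0.00173), 1.06 ± 0.24 (adjusted p = 0.00149) and 0.92 ± 0.24 (adjusted p = 0.00319) in that order. Postn was at 538, 705 and 589 CPM in MI24h-F, 969.5, 856 and 1119.8 in MI1h-23h-F and 832, 707 and 489.9 in MI6h-18h-F. None of these overlapped Sham. Postn changed by 1.58 ± 0.50 (adjusted p = 0.011), 2.26 ± 0.51 (adjusted p = 0.00149) and 1.73 ± 0.50 (adjusted p = 0.00701). Fbn1, the fibrillin of microfibrils, was at 331, 149 and 143 CPM in Sham and 721, 828 and 724 in MI1h-23h-F, without overlap, and changed by 1.87 ± 0.40 (adjusted p = 0.000951). Fn1 changed by 4.64 ± 0.59 (adjusted p = 2.91e-06), 3.51 ± 0.56 (adjusted p = 7.33e-05) and 4.23 ± 0.58 (adjusted p = 8.97e-06).

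Lum, Col3a1, Eln, Col14a1 and Sparc, each lower than Sham in MI24h, MI1h_R and MI6h_R, were not called in MI1h-23h-F. Lum was not called in MI6h-18h-F either. In MI1h-23h-F Lum was at 248, 239 and 323 CPM, below all Sham libraries, with a difference of -0.43 ± 0.39 (adjusted p = 0.376). Col3a1 was at 3041, 4445 and 3503 CPM and differed by -0.53 ± 0.37 (adjusted p = 0.244). Eln was at 70.1, 128 and 98.6 CPM and differed by -0.41 ± 0.39 (adjusted p = 0.396). For Eln, 2 libraries lay below the lowest Sham library and 1 between the lowest and the middle one. Gsn was lower than Sham in each group with F, by -2.98 ± 0.25 (adjusted p = 6.47e-08) in MI24h-F, -2.13 ± 0.24 (adjusted p = 4.61e-06) in MI1h-23h-F and -2.95 ± 0.25 (adjusted p = 1.40e-07) in MI6h-18h-F.

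Among the groups with F, matrix genes stood higher after early reperfusion than under permanent ligation. In MI1h-23h-F against MI24h-F, 11 of the 40 genes were higher and 2 lower, where 8.87% of all tested genes were higher and 6.74% lower. No called gene overlapped between the groups. Here and elsewhere, overlap of called genes is described on the same libraries that gave the call, so it is not separate support. Dpt was at 132, 129.5 and 116 CPM against 32.5, 39.3 and 45.8 and changed by 1.68 ± 0.34 (adjusted p = 0.00548). Eln, at 70.1, 128 and 98.6 CPM against 22.2, 32.9 and 36.8, changed by 1.69 ± 0.40 (adjusted p = 0.0109). Pcolce, the procollagen cleavage enhancer, was at 114, 138 and 129 CPM against 45.8, 49.96 and 50.6 and changed by 1.38 ± 0.34 (adjusted p = 0.0136). These were the 3 with the smallest p, and 1 is a resting fibroblast gene, 1 an elastic fibre gene and 1 a processing gene. Loxl1 was at 176, 265 and 241 CPM against 71.7, 121 and 114 and changed by 1.15 ± 0.29 (adjusted p = 0.0139). Col3a1 was at 3041, 4445 and 3503 CPM against 1177, 1373 and 1490.1 and changed by 1.44 ± 0.37 (adjusted p = 0.0162). Gsn was at 369, 408 and 527 CPM against 221, 203 and 299.6 and changed by 0.85 ± 0.24 (adjusted p = 0.0228).

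The fibrillar collagens took part, with 4 of 5 higher. Col1a2 was at 1665, 2221 and 1491 CPM against 847, 887 and 999 and changed by 0.98 ± 0.29 (adjusted p = 0.0309). Col5a2 was at 414, 477 and 373 CPM against 241, 257 and 284 and changed by 0.69 ± 0.21 (adjusted p = 0.0334). In Lum, at 248, 239 and 323 CPM against 122, 109 and 94.5, the change was 1.31 ± 0.39 (adjusted p = 0.0316). The groups were clear of each other in all 3. Sparc, at 2234, 2575 and 2124 CPM against 1203, 1169 and 1510.1, changed by 0.84 ± 0.27 (adjusted p = 0.0457). Col1a1 changed by 1.08 ± 0.36 (adjusted p = 0.0481). Sparc, Col1a1 and Col5a2 were not called under all 5 scalings. The hydroxylases moved the other way. Plod2 was at 288, 293 and 291 CPM against 421, 606 and 633 and changed by -0.93 ± 0.23 (adjusted p = 0.0143). P4ha2 was at 21.3, 28.98 and 34.7 CPM against 39.03, 69.3 and 50.7 and changed by -0.90 ± 0.23 (adjusted p = 0.0161). Of the 13 calls only Dpt held when any 1 of the 6 libraries was left out, and without MI1h-23h-F replicate 4 it was the 1 call left, with 1.66 (adjusted p = 0.0264). The summed cardiomyocyte markers were 11640 to 19220 CPM in MI1h-23h-F and 3148 to 5843 in MI24h-F, and Tagln, Rgs5 and Cnn1 of the 8 smooth muscle and pericyte markers were higher, Tagln by 2.44 ± 0.35 (adjusted p = 0.000959), and their part was not tested.

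MI6h-18h-F against MI24h-F gave no call among the 40 genes in edgeR, where 0.485% of all tested genes were called, with 5 at an unadjusted p under 0.05, 2 calls in DESeq2 and 4 in limma-voom. MI1h-23h-F against MI6h-18h-F gave none either, as for all 11742 genes (0%), with 8 at an unadjusted p under 0.05, 0 calls in DESeq2 and 14 in limma-voom. Over all genes DESeq2 called 61 higher and 134 lower in MI6h-18h-F against MI24h-F, and limma-voom 97 and 247. In MI1h-23h-F against MI6h-18h-F DESeq2 called 41 and 42 and limma-voom 794 and 598. MI6h-18h-F replicate 1 stood apart from the other 2 libraries of its group in the fibrillar collagens, with Col1a1 at 2519.9, 956 and 861 CPM, Col3a1 at 3556, 1316 and 1276 and Lum at 326, 133 and 143. Without it, 5 of the 40 genes were called between MI1h-23h-F and MI6h-18h-F.

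The groups with F were last compared with the same injury without F. MI24h-F against MI24h gave 1 call among the 40, against 5.19% of all tested genes higher and 7.78% lower (13% in all). Fap, the surface protease of activated fibroblasts, was at 25.2, 17.7 and 25.1 CPM against 8.53, 17.9 and 10.6, overlapping by 1 library in each, and changed by 0.87 ± 0.28 (adjusted p = 0.0484). Without MI24h replicate 11 its value was 0.67 (adjusted p = 0.169), and it was also lost without MI24h replicate 41 or MI24h-F replicate 1 or 4. MI1h-23h-F against MI1h_R gave no call in edgeR among the 40, where 0.0766% of all tested genes were called (0.0255% higher and 0.0511% lower), while 20 of the 40 had an unadjusted p under 0.05, DESeq2 called 5 and limma-voom 23. Over all genes DESeq2 called 141 higher and 173 lower, and limma-voom 1443 and 1333. No share over all genes is given for the unadjusted p. Col1a1 had the smallest p, at 1916, 2640.1 and 1794 CPM against 890.3, 409.7 and 795. The groups did not overlap, and the difference was 1.60 ± 0.36 (adjusted p = 0.0845).

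MI6h-18h-F against MI6h_R gave 7 higher and none lower of the 40, where 3.92% of all tested genes were higher and 5.71% lower (9.62% in all). Col1a1 was at 2519.9, 956 and 861 CPM against 334, 391 and 355 and changed by 2.00 ± 0.37 (adjusted p = 0.00496). Lum, at 326, 133 and 143 CPM against 75.05, 33.7 and 53.97, changed by 1.89 ± 0.40 (adjusted p = 0.0093). Cthrc1, which marks activated fibroblasts, was at 8.30, 6.64 and 7.88 CPM against 3.59, 2.11 and 2.15 and changed by 1.53 ± 0.40 (adjusted p = 0.0252). These 3 did not overlap between the groups and were called under all 5 scalings. Col1a2 was at 1864, 897 and 879.8 CPM against 576, 498 and 556 and changed by 1.16 ± 0.29 (adjusted p = 0.0215). Col3a1 changed by 1.31 ± 0.37 (adjusted p = 0.0337), from 1020.0, 552 and 907 CPM to the values given above. Fap, at 24.6, 27.3 and 22.8 CPM against 10.4, 13.00 and 12.95, changed by 1.04 ± 0.28 (adjusted p = 0.0278). Col14a1, at 77.7, 16.2 and 24.4 CPM against 9.31, 11.9 and 16.8, overlapped and changed by 1.64 ± 0.50 (adjusted p = 0.0464).

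MI6h-18h-F replicate 1 was the highest library of its group for Col1a1, Lum, Col1a2, Col3a1, Col14a1 and Cthrc1. Without it Col1a1 was the 1 gene still called, at 1.33 (adjusted p = 0.0239), while Lum was 1.35 (adjusted p = 0.0502), Col3a1 0.65 (adjusted p = 0.228), Col14a1 0.69 (adjusted p = 0.358), Col1a2 0.71 (adjusted p = 0.117), Cthrc1 1.47 (adjusted p = 0.0662) and Fap 1.05 (adjusted p = 0.0619). Col1a2, Col3a1, Col14a1 and Fap were also lost without any 1 of MI6h_R replicates 11, 21 and 31. Fap was lost without MI6h-18h-F replicate 2 as well. Cthrc1 was lost without MI6h_R replicate 21 or 31 or MI6h-18h-F replicate 2, the last at 1.62 (adjusted p = 0.0652). None of the 8 smooth muscle and pericyte markers was called by edgeR between MI6h-18h-F and MI6h_R, where 2 had an unadjusted p under 0.05, and limma on the TPM scale called none. The labels give no batch, and libraries with F carry other replicate numbers than those without, so a batch and F cannot be told apart.

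**Figure D5:**
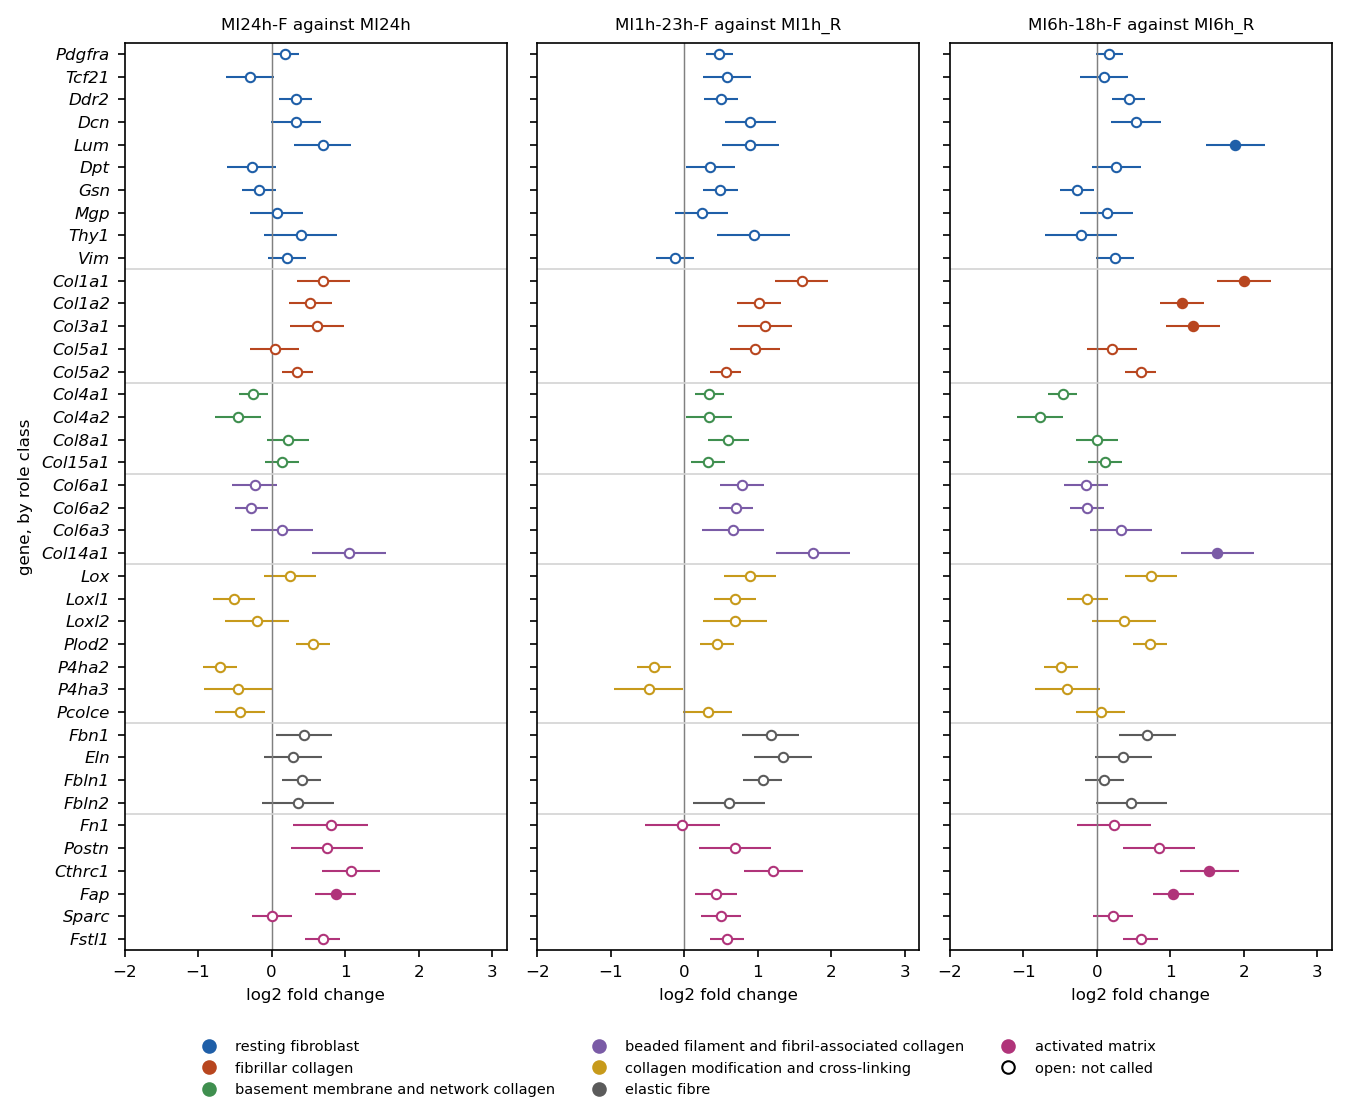
Log2 fold change of the 40 genes with F against the same injury without F, with 1 panel per comparison, points coloured by role class, bars of 1 standard error and filled points for genes called in edgeR. Filled points are Fap in the first panel, none in the second and 7 genes in the third, with Col1a1 farthest right at 2.00.

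Whether the change with F differed between injuries was tested with interaction terms. None of the 40 genes was called by edgeR in any of the 3, where 0%, 0% and 0.00852% of all tested genes were called. Between early reperfusion and permanent ligation 4 genes had an unadjusted p under 0.05, with 0 calls in DESeq2 and 8 in limma-voom. Between late reperfusion and permanent ligation the numbers were 2, 0 and 0, and between early and late reperfusion 6, 0 and 5. The counts at an unadjusted p have no share over all genes beside them and are not read as a result. Of the 11742 tested genes limma-voom called 1079 higher and 924 lower between early reperfusion and permanent ligation. Between early and late reperfusion it called 662 and 609. These shares in either direction were near those of the 40 genes. Calls in MI6h-18h-F and not in MI1h-23h-F are therefore not shown to differ between the injuries.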

How the data were processed

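Messenger RNA libraries of rat heart, 21 in 7 groups of 3, were sequenced, per the labels' protocols. Estimated counts and TPM per gene were deposited by the authors. Per the submitters' processing notes, STAR 2.7.3a, RSEM 1.3.1 and the rn7 genome were used. Annotation and strand setting are not given in the sources used here. Estimated counts were rounded to whole numbers, and CPM were computed with TMM factors. Genes were kept by filterByExpr. All 21 libraries entered 1 fit with a term per group in edgeR 4.0.16 under R 4.3.3, tested by quasi-likelihood with Benjamini-Hochberg adjustment at 0.05. Alternatives used DESeq2 1.42.0, limma 3.58.1 (voom with quality weights, or log2(TPM + 1)), other scalings, no filter, only the groups compared, a replicate block and leaving out each library. The fit was tested on simulated counts.

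The members and lists, and the motifs searched, were chosen with earlier results of these data known. Named genes are, per class and comparison with Sham, up to 3 called members of smallest p, and up to 12 in a comparison of injured groups. A class without a call is represented by its member of highest TPM. Members named beyond this rule were chosen after their values were seen. Replicates differed beyond sampling noise. The replicate numbers did not pair libraries (5 of 20 pairs correlated above 0.1). Counting without stated strand cannot separate overlapping or antisense genes, and near-identical copies share counts. A further result is not reported here.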

Additional observations from a re-analysis of the deposited data

How the results depend on the processing

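Against Sham, leaving out 1 library gave 21 to 26 called members in MI24h, 19 to 23 in MI1h_R, 22 to 29 in MI6h_R, 22 to 28 in MI24h-F, 20 to 29 in MI1h-23h-F and 23 to 27 in MI6h-18h-F. It gave 0 to 4 in MI1h_R against MI24h, 0 to 2 in MI6h_R against MI24h, 0 to 4 in MI1h_R against MI6h_R, 1 to 10 in MI1h-23h-F against MI24h-F, 0 in MI6h-18h-F against MI24h-F, 0 to 5 in MI1h-23h-F against MI6h-18h-F, 0 to 3 in MI24h-F against MI24h, 0 in MI1h-23h-F against MI1h_R, 1 to 8 in MI6h-18h-F against MI6h_R and 0 in each interaction. Counts moved under other settings as follows, and the cause was not tested. MI1h_R against MI24h gave 4 with DESeq2, 10 with limma-voom, 1 with library size alone and 0 with only the groups compared. Over all genes these fits called 408 higher and 639 lower, 615 and 894, 164 and 218, and 0 and 0. MI6h_R against MI24h gave 1 with limma-voom and 0 with TPM, with library size alone and with only the groups compared. MI1h_R against MI6h_R gave 4, 10 and 3 with DESeq2, limma-voom and TPM. MI1h-23h-F against MI24h-F gave 24 with limma-voom and 24 with only the groups compared, where all genes gave 2581 higher and 2234 lower, and 1789 and 1669. MI6h-18h-F against MI24h-F gave 2 with DESeq2 and 4 with limma-voom, and MI1h-23h-F against MI6h-18h-F gave 14 with limma-voom. MI24h-F against MI24h gave 4 with DESeq2, 4 with limma-voom, 2 with TPM, 3 with only the groups compared, and 0 with library size alone and with no filter. Over all genes DESeq2 called 908 higher and 1139 lower there, and limma-voom 1288 and 1628. MI1h-23h-F against MI1h_R gave 5 with DESeq2 and 23 with limma-voom, and MI6h-18h-F against MI6h_R gave 3 with TPM. The interactions gave 8 (early reperfusion against ligation) and 5 (early against late) with limma-voom. Signs against Sham turned on the TPM scale for Mgp (0.15) and Col1a2 (0.035) in MI24h, Col6a2 (0.20) and Sparc (0.17) in MI1h_R, Col1a2 (0.036), Col15a1 (0.10) and Sparc (0.21) in MI6h_R, Col6a2 (0.41) in MI24h-F, Tcf21 (0.16), Col15a1 (0.47) and Fbln1 (0.16) in MI1h-23h-F, and Col15a1 (0.10), Fbln1 (0.028) and Sparc (0.28) in MI6h-18h-F. With library size alone they turned for Col6a2 (0.12) and Sparc (0.090) in MI1h_R, Col6a2 (0.12) in MI24h-F, Col15a1 (0.14) in MI1h-23h-F and Sparc (0.029) in MI6h-18h-F. The replicate block, on numbers that do not pair libraries (correlations of -0.538 to 0.32, with 1 of 20 libraries correlating best with its own number), gave 22, 20 and 22 calls in MI24h, MI1h_R and MI6h_R against Sham, 1 in MI1h_R against MI24h, 0 in MI6h_R against MI24h and in MI1h_R against MI6h_R, and 0 in each comparison among the groups with F. No paired analysis was possible because the labels number them differently where groups with F were compared with those without. With 3 libraries a group and P4ha3 at no more than 7 counts in Sham, low genes are limited by depth.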
